A study of Rattus norvegicus with 16 samples.

Results

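The 9 enzymes and enzyme subunits of the mitochondrial tricarboxylic acid cycle (Cs, Idh3a, Idh3b, Idh3g, Ogdh, Dlst, Sucla2, Suclg1 and Mdh2) were followed by gene name in bulk RNA sequencing of the rat heart. Of these 9 genes, 8 had a row in the deposited tables of 17085 genes, and all 8 passed the filter on low counts. Idh3g had no row. All 16 libraries are labelled as infarct zone, Sham included, with 4 libraries in each of 4 groups. Sham rats served as surgical controls without a ligated artery. In MI rats a ligature closed the left anterior descending coronary artery. MI_soft and MI_stiff rats had the same ligation and were given a hydrogel, soft in the first group and stiff in the second (a hydrogel is a polymer network that holds water, and the series title speaks of injection into the heart muscle). The 3 infarct groups therefore share the ligation, and the 2 hydrogel groups differ by the gel's stiffness. The sources used here do not give strain, age, sex, the gel's composition or the time after ligation, and no group had a gel without an infarct or an injection without a gel. The RNA protocol names a group MI/R in place of the hydrogel groups. Whether replicates were separate animals is not stated, so p-values measure only the spread between these libraries, which may be technical.

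The tricarboxylic acid cycle oxidises acetyl-CoA from fatty acids, glucose and amino acids in the mitochondrial matrix and passes the electrons to the respiratory chain as NADH and reduced flavin. Heart muscle depends on the respiratory chain for nearly all of its ATP, and cardiomyocytes are packed with mitochondria. Citrate synthase (Cs) starts the cycle, isocitrate dehydrogenase 3 (Idh3a, Idh3b, Idh3g) and the oxoglutarate dehydrogenase complex (Ogdh, Dlst) carry out oxidative decarboxylations, succinyl-CoA ligase (Sucla2, Suclg1) makes a nucleoside triphosphate, and malate dehydrogenase 2 (Mdh2) regenerates oxaloacetate.

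RefSeq's promoter table (build GRCr8) held 8 of the 9 genes, all except Idh3a. Each entry spans 250 bases before to 50 bases after the annotated start. Printed here are the promoters of Cs and Ogdh, which had the largest differences between MI and Sham among the 8 measured genes, and of Idh3b and Mdh2, which had the smallest. Capitals mark matches, on either strand, to 4 motifs: TCAAGGTCA (estrogen-related receptors), GCGCATGC (NRF1 core), CCGGAAG (ETS factors, among them GABP) and GGGCGG (GC box). The Cs entry lies at chr7:1348139-1348438 on the plus strand and Ogdh at chr14:85363781-85364080 on the plus strand. Idh3b lies at chr3:137939941-137940240 and Mdh2 at chr12:26543792-26544091, both on the minus strand. Each sequence runs 5′ to 3′ along the gene's own strand.
Cs: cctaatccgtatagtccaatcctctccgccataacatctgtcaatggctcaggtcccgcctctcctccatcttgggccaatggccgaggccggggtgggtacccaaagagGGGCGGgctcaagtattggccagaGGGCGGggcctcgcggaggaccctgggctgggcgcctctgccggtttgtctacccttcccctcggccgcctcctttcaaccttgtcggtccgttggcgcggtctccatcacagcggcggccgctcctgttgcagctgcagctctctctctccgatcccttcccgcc
Ogdh: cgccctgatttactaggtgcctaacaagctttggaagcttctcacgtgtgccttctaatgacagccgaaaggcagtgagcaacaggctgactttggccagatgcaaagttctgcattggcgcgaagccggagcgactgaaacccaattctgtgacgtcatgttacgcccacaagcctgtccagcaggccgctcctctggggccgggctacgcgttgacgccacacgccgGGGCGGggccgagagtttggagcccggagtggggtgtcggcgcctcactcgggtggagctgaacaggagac
Idh3b: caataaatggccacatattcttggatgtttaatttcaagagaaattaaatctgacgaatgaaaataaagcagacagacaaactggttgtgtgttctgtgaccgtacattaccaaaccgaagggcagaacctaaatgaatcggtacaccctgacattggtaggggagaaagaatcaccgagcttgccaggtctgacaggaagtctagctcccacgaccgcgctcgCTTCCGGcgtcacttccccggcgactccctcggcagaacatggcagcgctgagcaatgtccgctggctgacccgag
Mdh2: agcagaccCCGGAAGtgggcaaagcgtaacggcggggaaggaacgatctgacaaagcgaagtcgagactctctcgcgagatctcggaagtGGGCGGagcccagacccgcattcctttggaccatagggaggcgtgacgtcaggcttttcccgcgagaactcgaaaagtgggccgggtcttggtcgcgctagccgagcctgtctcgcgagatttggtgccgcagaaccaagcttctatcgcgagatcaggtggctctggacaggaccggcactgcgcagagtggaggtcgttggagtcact
The GC box stood in 5 of the 8 promoters (Cs, Ogdh, Dlst, Sucla2 and Mdh2), against 33.1% of 33469 promoters of the same length. The ETS motif stood in 4 of the 8 (Idh3b, Idh3g, Dlst and Mdh2), against 8.75% of all. Neither the estrogen-related receptor motif, found in 0.433% of all promoters, nor the NRF1 core, found in 2.47%, was in any of the 8 windows, which says only that these letters are not there. The printed Cs sequence holds 2 GC boxes and no ETS motif, Ogdh 1 GC box and no ETS motif, Idh3b 1 ETS motif and no GC box, and Mdh2 1 of each. A match is a description of the letters and no evidence of binding.

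Library totals lay between 10940685 and 14456188 counts, and the 13 mitochondrially encoded genes took 25.1% to 50.5% of them. Fewer genes were detected in 4 libraries than in the rest: MI 2, MI 3 and MI 4 with 10470, 10958 and 11283, and MI_soft 4 with 11785, against 12019 to 12820 in the other 12. Some results that rest on them are also given without them, and others are not. Cardiomyocyte markers, 11 genes, summed to 34305 to 53810 TPM for Sham, 18773 to 31857 for MI, 26089 to 37717 for MI_soft and 17930.5 to 36767 for MI_stiff. Fibroblast markers, 8 genes, summed to 748 to 1024 TPM for Sham, 4069 to 7693 for MI, 2908 to 5076 for MI_soft and 3526 to 6303 for MI_stiff. Macrophage markers, 7 genes, summed to 79.9 to 125 TPM for Sham, 275 to 1424 for MI, 1462 to 3055 for MI_soft and 424 to 2189 for MI_stiff. In bulk tissue, fewer cells of a type and less RNA per cell cannot be told apart, and the part of these shifts in the results was not tested.

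The first comparison asked how ligation alone changed cycle transcripts. TPM, a level scaled for transcript length and library depth, is given per library in the order of replicates 1 to 4. Citrate synthase Cs stood at 484, 301, 473 and 454 TPM in Sham and at 166, 31.5, 74.7 and 53.1 in MI. Every MI library lay below every Sham library, and MI 1 was the highest of the MI libraries. The mean fell from 428 ± 85.5 to 81.3 ± 59.1 TPM (SD, n = 4 each), 19.0% of Sham, with a log2 difference of -2.57 ± 0.30 (SE) in counts (adjusted p = 8.08e-06, edgeR quasi-likelihood test, Benjamini-Hochberg over 11376 genes).

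Ogdh, the decarboxylating first subunit of the oxoglutarate dehydrogenase complex, stood at 525, 316, 478 and 471 TPM in Sham and at 182, 13.8, 32.2 and 27.9 in MI. The groups did not overlap, and MI 1 held over 5 times the level of any other MI library. Its log2 difference of -3.12 ± 0.45 (edgeR adjusted p = 6.4e-05) was the largest of the 8 in size, and it was -4.11 without MI 1 and -1.82 without the 4 libraries with few detected genes. The counts and TPM of Ogdh are identical in every library to those of a second gene model, LOC103693780, so its absolute level is uncertain. Dlst, the succinyl-transferring core of the same complex, went from 219 ± 33.8 to 75.4 ± 44.3 TPM, with 170 to 247 in Sham and 37.7 to 139 in MI. It fell by 1.97 ± 0.24 on the log2 scale (edgeR adjusted p = 1.4e-05), again with no overlap.

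Idh3a, the catalytic subunit of isocitrate dehydrogenase 3, ranged from 136 to 167 TPM in Sham and from 21.3 to 80.3 in MI, and fell by 1.87 ± 0.25 on the log2 scale (edgeR adjusted p = 2.9e-05). Idh3b, its partner subunit, stood at 296, 280.4, 346 and 280.5 TPM in Sham and at 179, 95.1, 273 and 119 in MI. MI 3 came close to the lowest Sham library in TPM, and on the log2 CPM scale (counts scaled to a common depth) the groups overlapped. Idh3b fell by 0.92 ± 0.28 on the log2 scale (edgeR adjusted p = 0.0171), a call lost without MI 2 (adjusted p = 0.0527) or without Sham 2 (adjusted p = 0.0539).

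Succinyl-CoA ligase was lower in both of its subunits among the 8 genes. Sucla2, the subunit that sets ADP as the substrate, ranged from 265 to 301 TPM in Sham and from 55.5 to 153 in MI, and fell by 1.56 ± 0.26 on the log2 scale (edgeR adjusted p = 0.000196). Suclg1, the shared alpha subunit, ranged from 295 to 487 TPM in Sham and from 124 to 245 in MI, and fell by 1.19 ± 0.21 (edgeR adjusted p = 0.000369). Neither gene's groups overlapped.

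Mdh2, the last enzyme of the cycle, was the most abundant of the 8 in every group. It stood at 1298, 1069.6, 1464 and 1240 TPM in Sham and at 849, 473, 996 and 604 in MI. The groups did not overlap, but the mean remained at 57.6% of Sham. Its log2 difference of -0.85 ± 0.24 (edgeR adjusted p = 0.0111) was the smallest of the 8 in size.

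**Figure D1:**
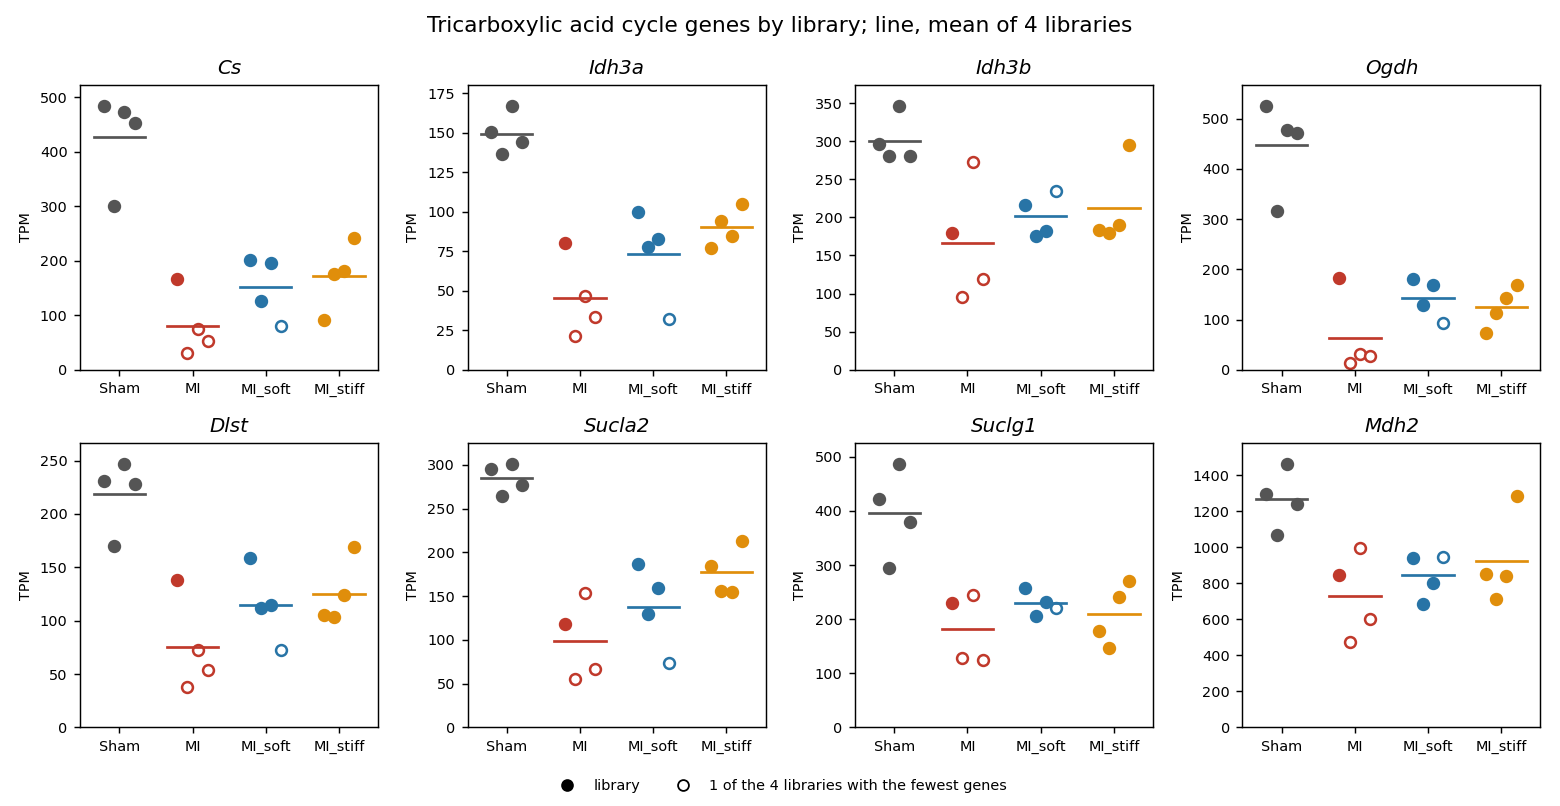
TPM of the 8 measured genes in each of 16 libraries; points are libraries, open for the 4 with few detected genes, lines are group means, and each panel's axis starts at 0. Ogdh and Cs in MI fall to 14.3% and 19.0% of the Sham mean, while Mdh2 and Idh3b stay at 57.6% and 55.4%.

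All 8 of 8 measured genes were thus called lower in MI, where 16.4% of the 11376 tested genes were called lower and 36.6% were called in either direction. Their median log2 difference was -1.72, against 0.06 over all tested genes. In log2 CPM the libraries did not overlap for 7 of 8, all except Idh3b, where 20.3% of tested genes were lower without overlap. All 8 calls held without the 4 libraries with few detected genes, which leaves MI 1 alone in its group. The order of the mean TPM moved with the unequal falls: in Sham it ran Mdh2, Ogdh, Cs, Suclg1, Idh3b, Sucla2, Dlst, Idh3a, and in MI it ran Mdh2, Suclg1, Idh3b, Sucla2, Cs, Dlst, Ogdh, Idh3a. In Sham, Ogdh at 448 ± 90.8, Cs at 428 ± 85.5 and Suclg1 at 396 ± 80.5 TPM did not differ beyond their spread, and in MI the same held for each pair of neighbours from Sucla2 through Cs, Dlst and Ogdh to Idh3a. The summed TPM of the 8 was 3493 ± 483 in Sham and 1443 ± 556 in MI, and the share of Mdh2 in that sum was 36.4% in Sham and 51.8% in MI. Both the MI order and this share rest mostly on libraries with few detected genes. In MI 1 the order ran Mdh2, Suclg1, Ogdh, Idh3b, Cs, Dlst, Sucla2, Idh3a, with Ogdh at 182 and Idh3b at 179 TPM. Its share of Mdh2 was 43.7%.

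The soft gel group was compared with Sham next. In MI_soft, Cs stood at 202, 127, 197 and 79.8 TPM, and Ogdh at 181, 129, 169 and 92.6. Every one of these libraries lay below Sham, and MI_soft 4 was the lowest for both genes. Cs had a log2 difference of -1.66 ± 0.29 (edgeR adjusted p = 0.000508) and Ogdh of -1.78 ± 0.43 (edgeR adjusted p = 0.00561). Dlst fell by 1.24, Idh3a by 1.22, Sucla2 by 1.19 and Suclg1 by 0.87 on the log2 scale, with edgeR adjusted p of 0.00108, 0.00162, 0.00236 and 0.00557. Idh3b, at 217, 175, 182 and 235 TPM, had a log2 difference of -0.64 ± 0.28 (edgeR adjusted p = 0.102). Mdh2, at 942, 686, 801 and 946 TPM, had one of -0.65 ± 0.24 (edgeR adjusted p = 0.0540). Both of these genes overlapped Sham in log2 CPM, though not in TPM.

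Thus 6 of 8 were called lower in MI_soft, where 9.70% of tested genes were (26.0% in either direction), and the median over the 8 was -1.20 against 0.01 over all tested genes. The same 6 did not overlap with Sham, as was so for 20.0% of tested genes in that direction. All 8 were called lower without MI_soft 4, with adjusted p = 0.0185 for Idh3b, and also without the 4 libraries with few detected genes. Without MI 1, MI 2 or MI 3 the call of Mdh2 was gained, and without MI 3 that of Idh3b as well (adjusted p = 0.0322). With all libraries kept, Mdh2 was also called with median-of-ratios scaling (adjusted p = 0.0327), without mitochondrially encoded genes (0.0411), with DESeq2 (0.0117), with limma-voom (0.0309) and with library weights (7.27e-06), and Idh3b with DESeq2 (0.0445) and with library weights (3.24e-05).

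In the stiff gel group Cs stood at 90.6, 175, 181 and 242 TPM and Ogdh at 73.7, 114, 143 and 169. MI_stiff 1 was the lowest for both, and no library reached the lowest Sham value. Cs had a log2 difference of -1.63 ± 0.29 (edgeR adjusted p = 0.000688) and Ogdh of -2.17 ± 0.44 (edgeR adjusted p = 0.00175). Dlst fell by 1.28, Suclg1 by 1.22, Idh3a by 1.02 and Sucla2 by 0.93 on the log2 scale, with edgeR adjusted p of 0.00100, 0.000511, 0.00652 and 0.0143. Idh3b, at 183, 179, 190 and 294 TPM, had a log2 difference of -0.83 ± 0.28 (edgeR adjusted p = 0.0445). Mdh2, at 852, 713, 838 and 1285 TPM, had one of -0.77 ± 0.24 (edgeR adjusted p = 0.0305). MI_stiff 4 was the highest library of its group for both and in TPM lay within the Sham range.

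All 8 of 8 were called lower in MI_stiff, where 8.44% of tested genes were (21.2% in either direction), with a median of -1.12 against 0.02 over all tested genes. In log2 CPM none of the 8 overlapped with Sham, as was so for 19.1% of tested genes in that direction. The calls of Idh3b and Mdh2 were the least stable: 11 single libraries left out, 1 at a time, ended that of Idh3b (adjusted p up to 0.118, without Sham 2), and 6 ended that of Mdh2 (up to 0.0824, without MI_stiff 2). With limma on log2(TPM + 0.1), 3 of 8 were called (Cs, Ogdh and Suclg1), on a scale where the median of all genes moved to 0.27.

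**Figure D2:**
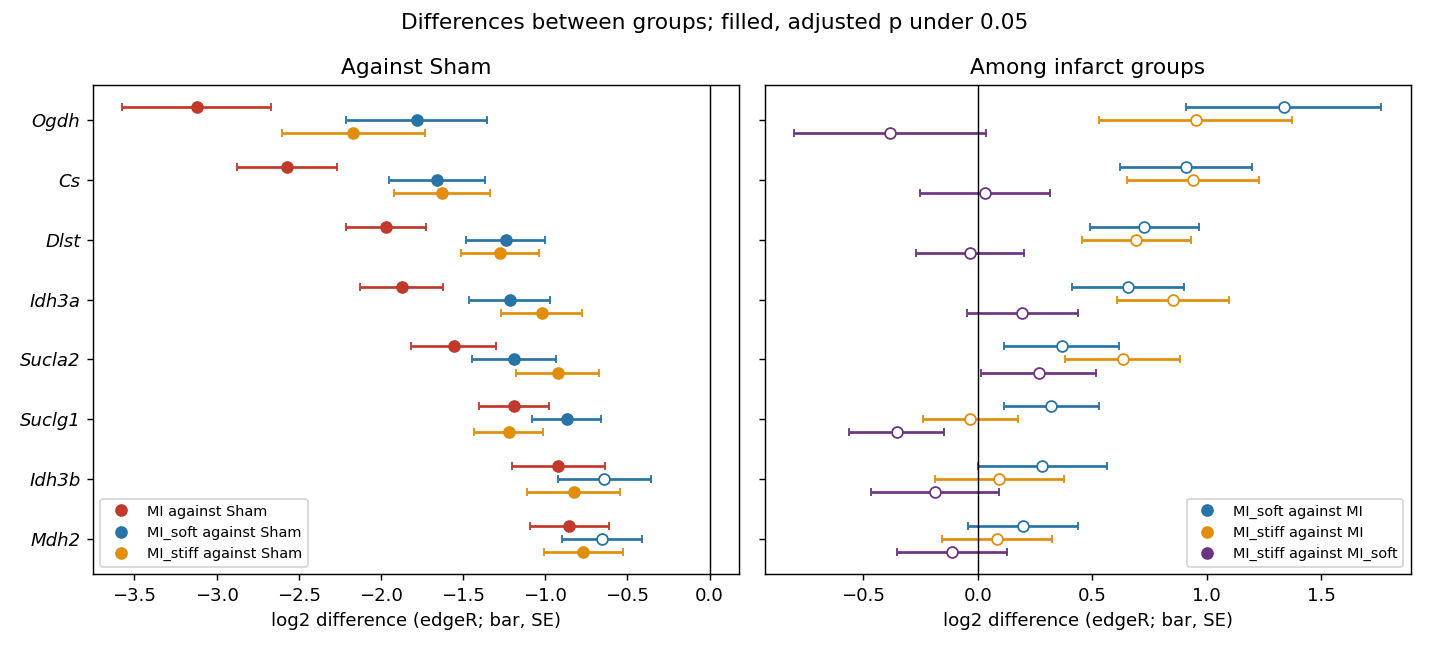
Log2 differences of the 8 genes from edgeR with SE bars, against Sham (left) and among the infarct groups (right); filled points have adjusted p under 0.05. The MI against Sham points run from -3.12 (Ogdh) to -0.85 (Mdh2), and no point among the infarct groups is filled.

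The hydrogel groups were then compared with MI. These 2 comparisons share the MI libraries, as the 3 comparisons above share Sham. Cs was at 81.3 ± 59.1 TPM in MI, 151 ± 58.8 in MI_soft and 172 ± 62.3 in MI_stiff. The log2 difference of Cs was 0.91 (nominal 95% interval 0.35 to 1.47, edgeR adjusted p = 0.178) for MI_soft and 0.94 (0.38 to 1.51, adjusted p = 0.110) for MI_stiff. Ogdh was at 64.0 ± 79.2, 143 ± 40.0 and 125 ± 40.7 TPM in the same order. Its differences were 1.34 (0.50 to 2.17, edgeR adjusted p = 0.179) and 0.95 (0.13 to 1.78, adjusted p = 0.261). For Ogdh, MI 1 was at 490 CPM, within the 464 to 568 of MI_soft and above the 285 to 428 of MI_stiff, and the groups overlapped.

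Dlst differed by 0.73 (edgeR adjusted p = 0.184) and 0.69 (adjusted p = 0.153), Idh3a by 0.66 (adjusted p = 0.224) and 0.85 (adjusted p = 0.0915), and Sucla2 by 0.37 (adjusted p = 0.493) and 0.63 (adjusted p = 0.213), for MI_soft and MI_stiff. For Idh3a, the MI_stiff libraries did not overlap in log2 CPM with MI, where 3.97% of tested genes were higher without overlap. In TPM the groups did overlap, at 77.2 to 105 in MI_stiff and 21.3 to 80.3 in MI. Suclg1, Idh3b and Mdh2 had smaller values, between -0.03 and 0.32 over both comparisons. The interval of Mdh2 was -0.27 to 0.67 for MI_soft and -0.39 to 0.56 for MI_stiff.

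No gene of the 8 was called in either comparison by edgeR. For MI_soft against MI, 4 of 8 had an unadjusted p under 0.05, 0.0264% of all tested genes were called, and DESeq2 called 0 of 7 with an adjusted p. For MI_stiff against MI, 5 of 8 had an unadjusted p under 0.05, 1.19% of all tested genes were called, and DESeq2 called 2 of 7 (Cs and Idh3a). The median over the 8 was 0.51 for MI_soft and 0.66 for MI_stiff. Without MI 1, which leaves the MI group with only libraries of few detected genes, Cs, Idh3a, Ogdh and Dlst were called higher in both gel groups. The same 4 genes were called in both comparisons with all libraries kept and limma-voom with library weights, with Ogdh at 1.94 (adjusted p = 0.00204) and 1.54 (adjusted p = 0.0157). Without MI 1 the Ogdh differences were 2.27 (edgeR adjusted p = 0.000146) and 1.91 (adjusted p = 0.000812), and those of Cs 1.22 (adjusted p = 0.00854) and 1.27 (adjusted p = 0.00818). For MI_stiff, Sucla2 was called without MI 3 and Idh3a without MI_soft 4. Without the 4 libraries with few detected genes, which leaves MI 1 alone in its group and assumes that it varies like the others, 0 of 8 were called and the Ogdh difference for MI_stiff was -0.33.

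Stiff and soft gels were last set against each other. The 8 log2 differences of MI_stiff against MI_soft ran from -0.38 for Ogdh (interval -1.21 to 0.44, edgeR adjusted p = 0.689) to 0.27 for Sucla2 (interval -0.23 to 0.76, adjusted p = 0.638). Suclg1 was at -0.35 (interval -0.76 to 0.05) and Cs at 0.03 (interval -0.53 to 0.59). In log2 CPM the Ogdh libraries of MI_stiff all lay below those of MI_soft, as was so for 6.87% of tested genes. In TPM the groups overlapped, at 73.7 to 169 in MI_stiff and 92.6 to 181 in MI_soft. edgeR called 0 of 8, with 0 at an unadjusted p under 0.05, DESeq2 called 0 of 7, and 0.0967% of all tested genes were called by edgeR.

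Subunits of one enzyme need not move together, so their TPM ratio within a library was examined on the log2(TPM + 0.1) scale. Ogdh to Dlst averaged 1.02 ± 0.13 across Sham libraries (SD, n = 4), then -0.79 ± 0.82 for MI, 0.33 ± 0.17 for MI_soft and -0.04 ± 0.32 for MI_stiff. Sham lay above all 3 infarct groups without overlap. Idh3a to Idh3b averaged -1.01 ± 0.05 for Sham, -1.92 ± 0.59 for MI, -1.57 ± 0.86 for MI_soft and -1.20 ± 0.23 for MI_stiff. MI_soft 4 stood far below its group, at -2.86, and the other 3 MI_soft libraries averaged -1.14 ± 0.03, so that the difference from Sham was -0.56 with MI_soft 4 and -0.13 without it. Of the MI libraries, the one with more detected genes, MI 1, was at -1.16 for this ratio and at 0.40 for Ogdh to Dlst. Sucla2 to Suclg1 was -0.45 ± 0.22, -0.93 ± 0.22, -0.82 ± 0.52 and -0.21 ± 0.35 in the same order of groups. Without MI_soft 4 the MI_soft mean of this ratio was -0.56 ± 0.10, and MI 1 alone was at -0.95. Sucla2 to Suclg2, the 2 alternative beta subunits, was 1.59 ± 0.03, 1.21 ± 0.51, 1.37 ± 0.24 and 1.61 ± 0.23. Over 4 ratios and 6 comparisons, 6 of 24 two-sided exact permutation tests reached p = 0.0286, the smallest that 70 splits of 4 against 4 allow. After Benjamini-Hochberg adjustment the smallest value was 0.114. Since 14 of the 24 tests would have had to reach the smallest p for any to pass, the adjusted values say little about the ratios. The 6 were Ogdh to Dlst in each infarct group against Sham, Idh3a to Idh3b in MI and MI_soft against Sham, and Sucla2 to Suclg1 in MI_stiff against MI.

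**Figure D3:**
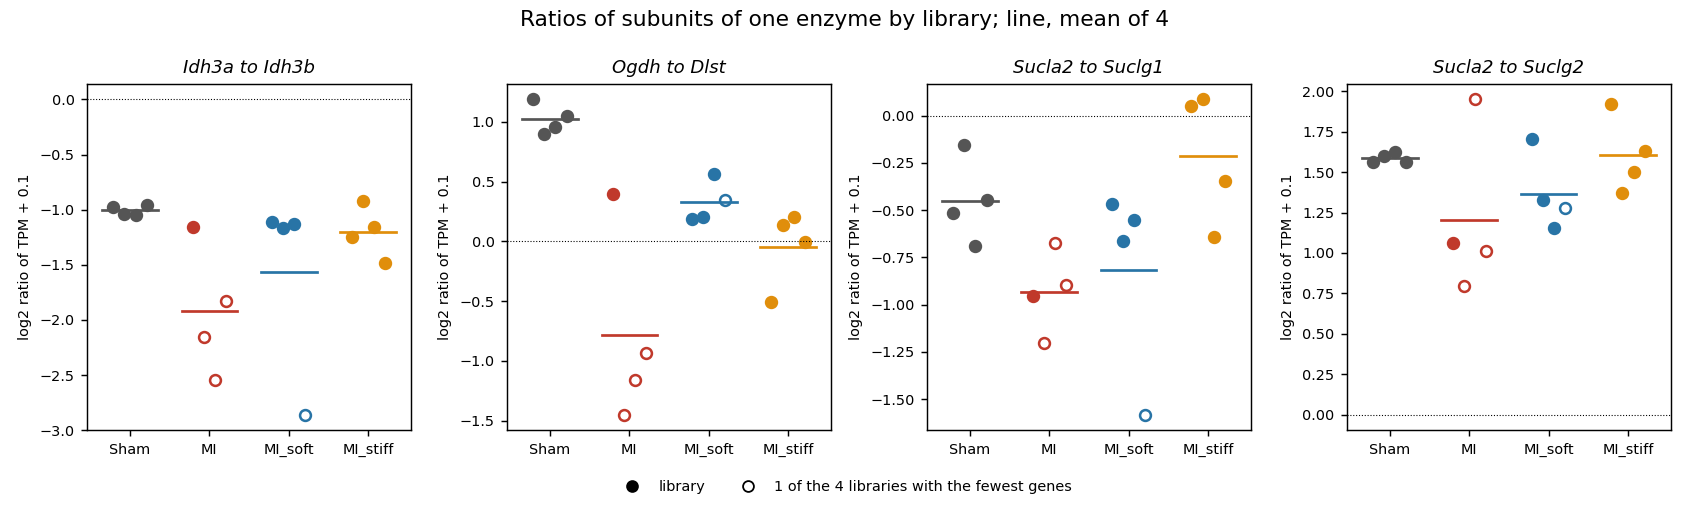
Log2 TPM ratio of 2 subunits of one enzyme in each library, open points for the 4 with few detected genes, with group means as lines. Ogdh to Dlst lies at 1.02 ± 0.13 in Sham and at or below 0.33 ± 0.17 in the means of the infarct groups.

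Transcript length moved with these differences. Length relative to Mdh2, from counts per TPM, was 2.91 for Ogdh, 2.24 for Dlst, 1.89 for Idh3a, 1.57 for Sucla2, 1.21 for Idh3b, 1.20 for Cs and 0.954 for Suclg1. Over the 8 genes, which share all libraries, log2 length and the MI against Sham difference had r = -0.73, a description with no test. For the differences of MI_soft and MI_stiff from Sham, r was -0.67 and -0.58. Over 10434 genes, ranked by length into 4 groups, the shortest group of 2609 genes had a median difference of 0.27 and the longest of -0.12 in MI against Sham, 0.25 and -0.26 in MI_soft, and 0.03 and -0.02 in MI_stiff. With each library's length trend removed, an alternative chosen after the data were seen, the 8 genes were still all called lower in MI and in MI_stiff and 7 in MI_soft. In MI against Sham the difference of Cs was then -2.56 and that of Mdh2 -0.79.

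**Figure D4:**
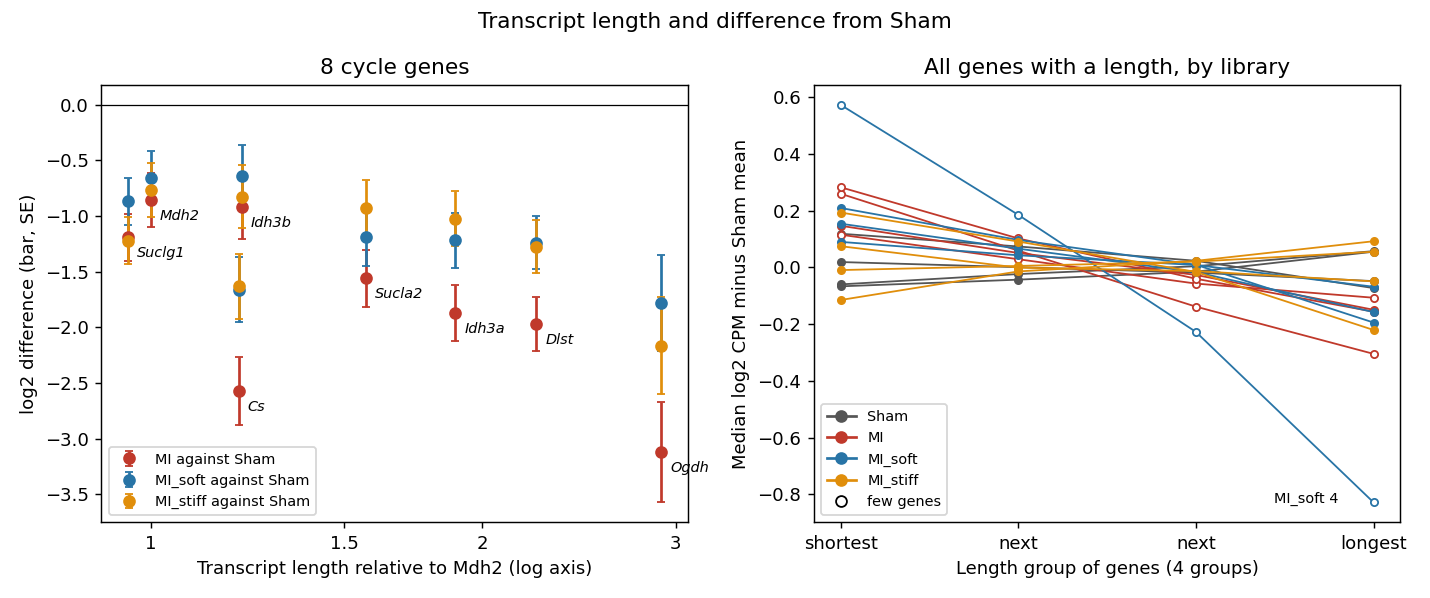
Left, log2 difference from Sham (bars, SE) of the 8 genes by transcript length relative to Mdh2 on a log axis; right, median log2 CPM minus the Sham mean over 4 length groups of 10434 genes, 1 line per library, open points for the 4 libraries with few detected genes. Ogdh, at 2.91, lies lowest in MI at -3.12 and Cs, at 1.20, next at -2.57, and the line of MI_soft 4 runs from 0.57 to -0.83.

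The remaining enzymes of the cycle were examined as a list of 11. In MI 9 of 11 were called lower than Sham and 0 higher, with a median of -1.32, beside 16.4% of all tested genes called lower. The succinate dehydrogenase subunits Sdhc and Sdha had log2 differences of -1.66 and -1.58, the NADP-dependent Idh2 -1.53, Dld, the dehydrogenase subunit that several complexes share, -1.38, and the beta subunit Suclg2 -1.32. Sdhd was at -1.09, the assembly factor Sdhaf2 at -0.88 and Sdhb at -0.81. Fumarase Fh was at -0.69 (edgeR adjusted p = 0.0597). Ogdhl, a relative of Ogdh, was at 1.17 ± 0.13 TPM in Sham and 1.21 ± 0.77 in MI, with a difference of -0.04 (adjusted p = 0.947). In MI_soft 8 of 11 were lower (median -0.87), all but Sdhb, Fh and Ogdhl, and in MI_stiff 8 of 11 (median -0.88), all but Dld, Fh and Ogdhl. Of all tested genes, 9.70% were called lower in MI_soft and 8.44% in MI_stiff.

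Genes around the cycle were counted in the same way, beside the 16.4% of all tested genes called lower and 20.2% called higher in MI. Of 13 genes of pyruvate entry, 11 fell and 1 rose in MI (median -1.54). All listed kinases that inactivate pyruvate dehydrogenase were lower except Pdk3. Pdk4 fell by 3.16 and Pdk1 by 2.28 on the log2 scale, and Pdk2 went from 236 ± 44.0 to 66.4 ± 41.2 TPM. Pdk3 rose by 2.09, from a low level of 1.43 ± 0.11 to 6.45 ± 1.51 TPM. Mpc2, a subunit of the mitochondrial pyruvate carrier, fell by 2.17, at low counts of 7.14 ± 2.93 CPM in Sham and 1.57 ± 0.56 in MI. In MI_stiff against MI, Pdk1 was the 1 gene of this list called, at 0.96 (edgeR adjusted p = 0.0387). The largest difference of the list there was that of Pdk4, 3.37 ± 0.89 (edgeR adjusted p = 0.0675). Sham libraries held Pdk4 at 70.2 ± 18.5 TPM and MI libraries at 7.87 ± 4.42, while the soft gel group averaged 24.8 ± 24.8 and the stiff gel group 99.6 ± 33.7. Of 7 cytosolic counterparts and malic enzymes, 3 fell (Me3 by 1.91, Me1 by 1.17, and cytosolic Mdh1 from 1696 ± 159.9 to 879.7 ± 316 TPM) and Me2 rose by 0.89, with a median of -0.07. Of 7 tested genes of anaplerosis, transaminases and carriers, 5 fell and 0 rose (median -1.498), led by the aspartate-glutamate carrier Slc25a13 at -2.83, Got2 at -2.04 and Got1 at -1.75.

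Among 11 transcriptional regulators of mitochondrial genes, 7 fell and 0 rose in MI (median -2.34). Esrrg, Esrrb and the coactivator Ppargc1a had the largest differences, -3.67, -3.62 and -3.29, at low levels of 8.36 ± 2.18, 4.93 ± 1.75 and 5.51 ± 1.70 TPM in Sham. In MI_soft 4 of 11 fell and in MI_stiff 5 of 11. Of 12 genes of mitochondrial mass and import, 10 fell (median -0.86), with Hspa9 at -2.14, Vdac1 at -2.03 and Immt at -1.64. Of 11 cardiomyocyte markers, 8 fell in MI (median -1.04), 6 in MI_soft and 9 in MI_stiff, and 0 rose. The shares of all tested genes called lower were 16.4% in MI, 9.70% in MI_soft and 8.44% in MI_stiff.

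Markers of other cell types moved in the same groups, read against the 20.2% of all tested genes called higher in MI, 16.4% in MI_soft and 12.7% in MI_stiff. Fibroblast markers rose in 8, 7 and 8 of 8 in that order, and macrophage markers in 7 of 7 in each group. Adipocyte markers rose in 4, 3 and 0 of 4, with median log2 differences of 7.09, 8.59 and 5.64. The size of these medians is uncertain, since 2 of the 4 genes were at 0 TPM in every Sham library. Libraries also differed widely: the mean log2 CPM of this list ran from -0.23 to 0.05 in Sham and from 0.13 to 3.70 in MI. It ran from 0.24 to 4.88 in MI_soft and from -0.05 to 2.64 in MI_stiff. Those of smooth muscle rose in 2, 2 and 1 of 3, with 1 lower in MI_stiff. Skeletal muscle markers rose in 2, 3 and 1 of 4 tested, with 1 lower in MI and 1 in MI_stiff. Lymphocyte markers rose in 0, 3 and 0 of 6, and endothelial markers in 0 of 5 in each group, with 1 lower in MI and 1 in MI_soft. The part of these cell types in the cycle genes' differences was not tested.

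The mean log2 CPM of the 8 genes averaged 9.52 ± 0.08 for Sham (SD, n = 4), 7.64 ± 0.50 for MI, 8.34 ± 0.11 for MI_soft and 8.28 ± 0.08 for MI_stiff. Minus the mean of the 11 cardiomyocyte markers it was -1.70 ± 0.11, -2.29 ± 0.21, -1.93 ± 0.16 and -1.63 ± 0.28 in that order. The MI mean lay below Sham by more than the spread of either group, and the MI_stiff mean lay within the spread of Sham, with no test. Minus the 12 genes of mitochondrial mass it was 1.85 ± 0.02, 0.99 ± 0.29, 1.41 ± 0.10 and 1.37 ± 0.09. How far cardiomyocyte content entered the differences was not tested.

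**Figure D5:**
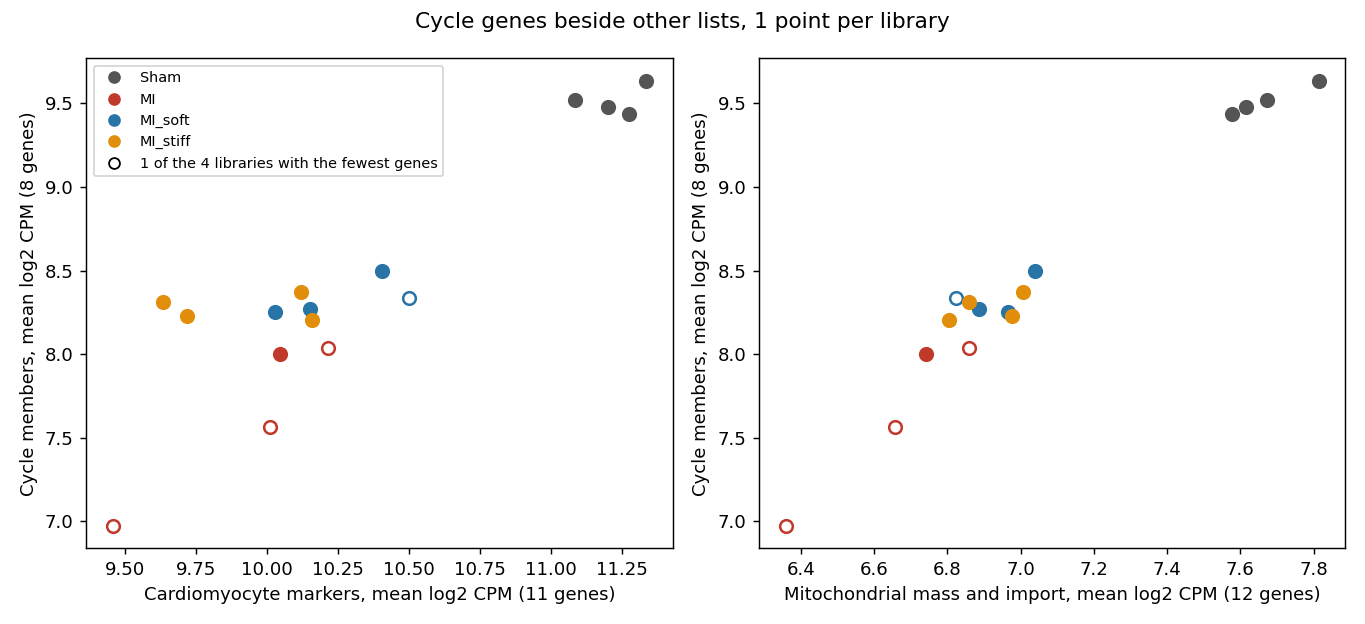
Mean log2 CPM of the 8 cycle genes (y axis) against that of 11 cardiomyocyte markers (left) and 12 genes of mitochondrial mass and import (right), 1 point per library, open for the 4 with few detected genes. Sham libraries average 9.52 on the y axis and lie above all infarct libraries, and MI 2 is lowest at 6.97.

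Across the 16 libraries, which share the group differences, pairs among the 8 genes had Pearson's r of log2 CPM between 0.63 (Idh3b and Ogdh) and 0.99 (Cs and Dlst), given as a description. Idh3b followed Mdh2 at 0.98 but its own partner Idh3a at 0.65. The log2 TPM ratio of Idh3a to Idh3b was -2.15, -2.55, -1.83 and -2.86 in MI 2, MI 3, MI 4 and MI_soft 4. In all other libraries it lay between -1.49 and -0.92. The correlations were not run without these libraries of few detected genes. Outside the 8, the 10 genes most like their mean were Atp2a2 (r = 0.985), Dnaja3, Phyh, Mettl11b, Perm1, Sdha, Tnni3k, Pdk1, Ank1 and Hadhb (r = 0.971).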

How the data were processed

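Rat infarct zone RNA was measured in 16 libraries. The authors deposited expected counts per gene, which need not be whole, and TPM for the same genes. The tools named in the submitters' processing notes are RSEM 1.3.1 and STAR 2.7.3a, with build rn7. The gene annotation and strandedness used are not given in these sources. Expected counts, of which 0.785% were not whole, were rounded. Genes with low counts were removed with edgeR's filterByExpr, which left 11376 of 17085. Libraries were scaled by TMM, and edgeR 4.0.16 (R 4.3.3) fitted all 16 with robust quasi-likelihood and 1 coefficient per group. p-values were adjusted by Benjamini-Hochberg over all tested genes, with calls at 0.05. Intervals are nominally 95%, at 1.96 SE to either side, with the SE taken from the difference and its test statistic. They are narrower than intervals matched to the quasi-likelihood test would be. log2 CPM used a prior count of 2. Subunit ratios used log2(TPM + 0.1) and exact permutation tests. Relative length used genes with a count of at least 10 and a TPM of at least 1. The fitting script was tested on simulated data. Alternatives were RLE scaling, no filter, leaving out mitochondrially encoded genes, DESeq2 1.42.0, limma 3.58.1 (voom, library weights, log2 TPM), a replicate block, the 2 groups alone, libraries left out, and a length correction. Group and replicate number came from the labels. Named were all measured members, the other cycle enzymes (1 of which is not reported here by name), the 3 called genes with the largest MI against Sham difference in each other metabolic list, and the 10 genes most correlated with the members' mean. Pdk2, Pdk3 and Me2 were named after their values were seen. Marker lists are given by counts. The members and lists were chosen with earlier results of these data known. Promoter sequences are from RefSeq (GRCr8), not rn7, and no coordinates were joined to the counts.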

Additional observations from a re-analysis of the deposited data

Results flagged for a closer look

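A single value among the 8 cycle genes stood apart from its group, out of 32 gene and group combinations checked. Ogdh in MI_stiff 1 was at 8.16 log2 CPM, while the other 3 MI_stiff libraries lay between 8.70 and 8.74. The gap to the nearest library was 0.93 of the group's range, above the 0.829 that marks an outlier among 4 values. Chance flags about 1 in 20 such groups.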

How the results depend on the processing

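Against Sham, no member changed direction under any alternative run. With 1 library left out, the number of members called lower ran from 7 to 8 for MI, from 6 to 8 for MI_soft and from 6 to 8 for MI_stiff, and limma on log2(TPM + 1) and on log2(TPM + 0.1) gave 3 for MI_stiff. Among the infarct groups, leaving out 1 library gave 0 to 4 for MI_soft against MI, 0 to 4 for MI_stiff against MI and 0 to 0 for MI_stiff against MI_soft; library weights gave 4 and 4 for the first pair and DESeq2 gave 2 for MI_stiff against MI. DESeq2 gave Ogdh no adjusted p. The replicate numbers were not said to pair animals, and the 24 same-numbered pairs had correlations of -0.28 to 0.18 (5 above 0.1). The replicate block gave 8, 6 and 7 members against Sham, losing Idh3b in MI_stiff (adjusted p = 0.0642), and 0 in each other comparison. For the subunit ratios the count called was 0 throughout (0 to 0 with 1 library left out), which says nothing of their stability, since 14 of 24 exact tests at the smallest p were needed for any call.

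Values that changed sign were all uncalled, and the cause was not tested. For MI_soft against MI, Mdh2 was -0.025 with library weights and -0.084 with the length trend removed. For MI_stiff against MI, Idh3b was -0.098 and Mdh2 -0.090 with the length trend removed, and Ogdh was -0.33 and Suclg1 0.11 without the 4 libraries with few genes. Suclg1 was also 0.0021 with median-of-ratios scaling, 0.0022 with DESeq2, 0.037 with library weights, and 0.23 with both TPM fits. For MI_stiff against MI_soft, library weights gave Cs -0.059, Idh3a -0.0027, Idh3b 0.066 and Mdh2 0.088. Without the 4 libraries Cs was -0.078, Idh3b 0.10 and Mdh2 0.15. With log2(TPM + 1) and log2(TPM + 0.1), Idh3b was 0.045 and 0.045, Dlst 0.15 and 0.16, and Mdh2 0.10 in both. With 1 library left out, values ran from -0.013 to 0.66 (Idh3b) and -0.071 to 0.41 (Mdh2) for MI_soft against MI, from -0.039 to 0.50 (Idh3b), -0.090 to 0.20 (Suclg1) and -0.0087 to 0.32 (Mdh2) for MI_stiff against MI, and from -0.076 to 0.19 (Cs), -0.31 to 0.10 (Idh3b), -0.13 to 0.11 (Dlst) and -0.21 to 0.15 (Mdh2) for MI_stiff against MI_soft. The Idh3a to Idh3g ratio was not run, since Idh3g has no row.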
